A study of Mus musculus with 12 samples.

Results

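A microRNA hairpin yields a pair of strands, one from each arm, and this account concerns the assays for the strand that the assay maker's catalogue treated as the less common one, marked # after the name. They were chosen by name alone, as all assays of the normalized table whose name ends in #, which gave 121 of 762 assays. Of these, 50 had a value in at least 1 mouse, 46 had one in all 12 mice, and 71 had none. The main arm of a pair is the assay with the same name without #.

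Lung RNA was taken from 12 C57BL/6 mice in 4 groups of 3. Irradiated flaxseed mice (15, 17 and 18) ate a 10% flaxseed diet for 21 days, received 13.5 Gy and were killed 48 h later. Unirradiated flaxseed mice (11, 12 and 13) had that diet and no radiation, irradiated control mice (7, 8 and 9) had the control diet and the same dose, and unirradiated control mice (2, 4 and 5) had the control diet alone. The labels name no transgene or mutation, and each sample is 1 mouse, so p values here measure the spread between mice. The labels give whole lung tissue. The endothelial miR-126 had a mean level of 9.27 and the epithelial miR-200a and miR-375 of 5.09 and 1.75, while the liver's miR-122 had no value in any mouse. Of ciliated cells, miR-34b-3p stood at 4.88, miR-449 at -0.99 and miR-449b at -3.60, and a further miR-449b assay had no value. Of red cells, miR-451 stood at -0.71 and miR-144 had no value. Of other tissues' microRNAs, the striated muscle's miR-133a (3.07), miR-133b (-0.20) and miR-1 (-0.27 and -0.73 in separate assays) were detected in all 12 mice. So were the neuronal miR-124a (-4.60) and miR-128a (-3.52). miR-206 and the main arm of miR-9 had no value, whereas miR-9# was measured, at a mean threshold cycle of 26.15.

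After a hairpin is cut by Drosha and Dicer, the short duplex that remains is loaded into an Argonaute protein, and usually the strand whose 5′ end is less tightly paired is kept while the other is degraded. Argonaute proteins also favour some bases at the 5′ end, U among them. The kept strand finds its targets mainly through its seed (bases 2 to 8), so the arms of a hairpin can have different targets, and the discarded strand is as a rule much the rarer of the pair. Both strands of a duplex come from the same precursor, but a mature strand can come from several: RefSeq lists miR-29b-3p for Mir29b-1 and for Mir29b-2, while miR-29b# is the strand of Mir29b-1. The main arm of miR-29b may thus hold both sources. The let-7a main arm likewise comes from several hairpins, of which let-7a# reports that of Mirlet7a-1. The same may hold for miR-16. Its # strand is named for Mir16-1 (mmu-miR-16-1-3p), while the name of its main arm (mmu-miR-16-5p) carries no hairpin number.

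The sequences below are those of the arms that the results turn on, from RefSeq's table for GRCm38.p6, written 5′ to 3′ with the seed in capitals. They are shown because the arms of each pair share no seed, and because the main arms of miR-29b and miR-29c share a seed that their # arms do not.
miR-26b# (mmu-miR-26b-3p, chr1:74394360-74394381, plus strand, within Ctdsp1): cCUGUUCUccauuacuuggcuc
miR-26b (mmu-miR-26b-5p): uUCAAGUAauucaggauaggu
let-7a# (mmu-let-7a-1-3p, chr13:48538188-48538209, minus strand): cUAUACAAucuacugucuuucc
let-7a (mmu-let-7a-5p): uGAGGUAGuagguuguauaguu
miR-33a# (mmu-miR-33-3p, chr15:82198167-82198188, plus strand, within Srebf2): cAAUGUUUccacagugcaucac
miR-872# (mmu-miR-872-3p, chr4:94665206-94665227, plus strand, within Ift74): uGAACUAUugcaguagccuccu
miR-18a# (mmu-miR-18a-3p, chr14:115043908-115043929, plus strand): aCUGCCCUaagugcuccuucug
miR-214# (mmu-miR-214-5p, chr1:162223397-162223418, plus strand, within Dnm3 and Dnm3os): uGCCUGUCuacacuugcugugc
miR-29c# (mmu-miR-29c-5p, chr1:195037562-195037583, plus strand, within the lncRNA A330023F24Rik): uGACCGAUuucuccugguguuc
miR-29c (mmu-miR-29c-3p): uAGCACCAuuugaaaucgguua
miR-29b# (mmu-miR-29b-1-5p, chr6:31063067-31063088, minus strand): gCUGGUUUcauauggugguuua
miR-29b (mmu-miR-29b-3p): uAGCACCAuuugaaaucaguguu
miR-34c# (mmu-miR-34c-3p, chr9:51103044-51103065, minus strand, within the bounds of Btg4 and Hoatz): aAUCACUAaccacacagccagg
miR-93# (mmu-miR-93-3p, chr5:138165536-138165557, minus strand, within Mcm7): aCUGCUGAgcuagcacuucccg
miR-93 (mmu-miR-93-5p): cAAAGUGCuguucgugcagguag
miR-186# (mmu-miR-186-3p, chr3:157544324-157544345, plus strand, within Zranb2): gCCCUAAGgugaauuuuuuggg
miR-186 (mmu-miR-186-5p): cAAAGAAUucuccuuuugggcu

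The host genes are those whose bounds in the same RefSeq build hold the mature sequence; that table gives neither their strand nor their exons, so exonic or intronic position is not stated. Which RefSeq strand an assay reads was taken from the assay name, since no file pairs them. In the table, 42 of the 50 measured # assays had a sequence for the # strand, 29 of them from the 3p arm and 13 from the 5p arm. For the 41 hairpins with both arms, the main arm began with U in 23 and the # arm in 7, whereas the main arm began with C in 5 and the # arm in 13. No hairpin had the same seed in both arms. The # arms held 39 different seeds, and their main arms 31. Among # arms, miR-200a# and miR-200b# shared 1 seed, and miR-99a# and miR-99b# another.

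Levels are given on a log2 scale relative to the mean of 260 microRNA assays detected in all 12 mice, so that 1 unit is 1 threshold cycle and 0 is that mean. A value was counted as detected at a relative threshold cycle (Crt) below 28. In each mouse 44 to 50 of the # assays were detected, with the fewest in mouse 13 (44) and mouse 11 (48), which also had the fewest detected assays overall (281 and 291, against 297 to 312 in the other mice). The mean Crt was 21.2 in mouse 13 and 19.4 to 20.4 in the others. Mouse 11 had the smallest gap between primer pools B and A, 1.78 cycles against 2.37 to 2.81. Both are unirradiated flaxseed mice. Of the Crt values, 42.1% to 50.0% had more than 3 decimals in irradiated flaxseed and unirradiated control mice, and 2.25% to 3.11% in the other 6. This difference between the deposited columns cannot be told apart from the interaction of diet with radiation. Nor can it be told apart from diet within a radiation state, or from radiation within a diet. Only the comparisons pooled over radiation or over diet have both kinds of columns on each side.

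The share of # assays with a value, 41.3%, was close to the 41.7% of the 629 other microRNA assays. Most # assays (114 of 121) are in primer pool B, and there 39.5% had a value, against 28.2% of the 259 other assays of that pool. Of the 71 # assays with no value, 36 had a main arm with a value, 21 had a main arm assay with none and 14 had no assay of the same name. Those with no value while the main arm was measured include miR-150#, miR-145#, miR-10a#, miR-10b# and let-7b#. By family, 2 of 8 # assays of let-7 and miR-98 had a value, 5 of 11 of the miR-17 to miR-92 clusters, 4 of 5 of miR-29, 2 of 4 of miR-30, and 2 of 12 of the large imprinted Dlk1-Dio3 cluster.

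**Figure D1:**
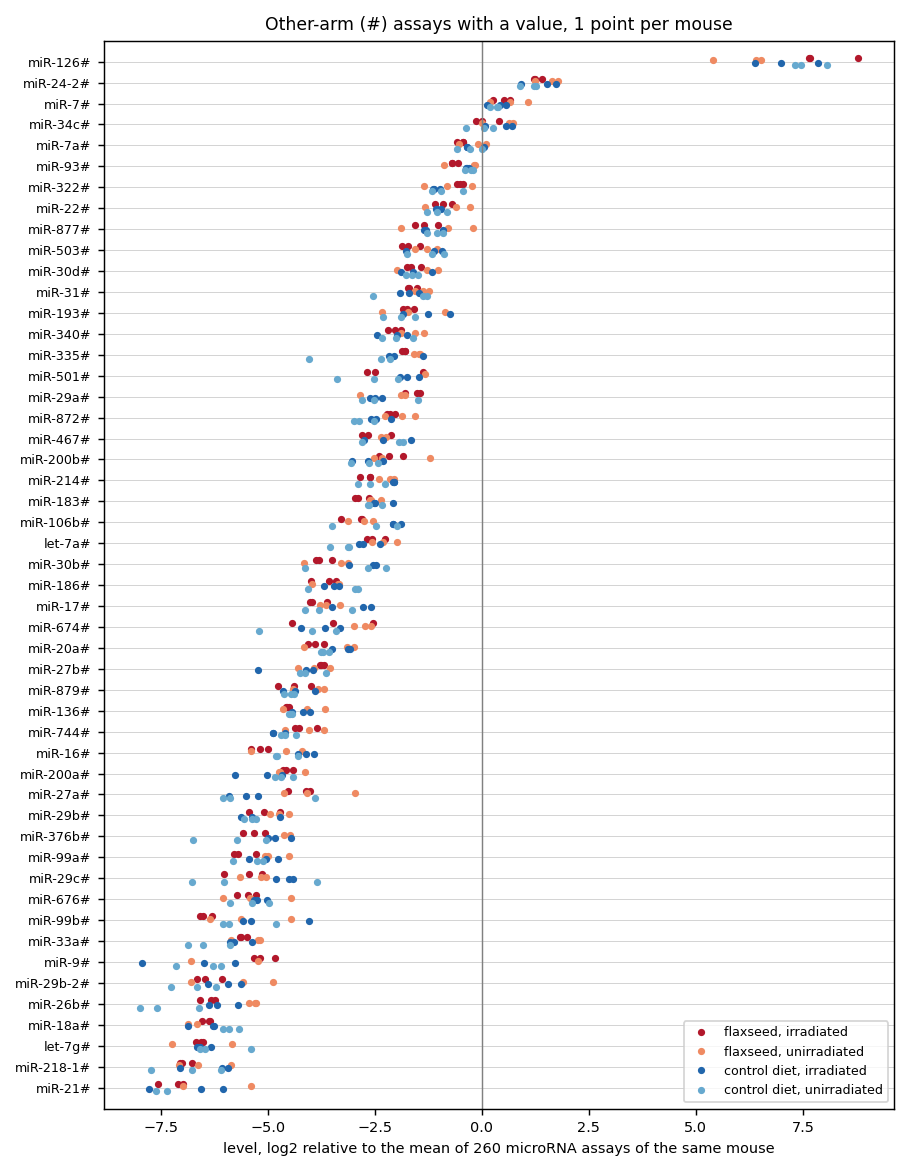
Level of the 50 measured # assays (vertical axis, ordered by mean) in each mouse, on the horizontal axis as log2 relative to the mean of 260 microRNA assays; colours give the group. miR-126# lies between 5.41 and 8.80, above all others, and 4 assays have a mean above 0.

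The # strands were low in these lungs. The 49 that could be tested, each with at most 1 undetected mouse per group, had a median level of -3.50, against -0.19 for the other 247 tested microRNA assays and -1.65 for those of them in pool B. The untested one was miR-501#. Only miR-126#, miR-24-2#, miR-7# and miR-34c# had a mean above 0, at 7.21, 1.34, 0.45 and 0.24, and miR-7a# came next at -0.29. miR-126# is the 5p strand of the endothelial hairpin in Egfl7, miR-24-2# comes from a cluster with miR-23a and miR-27a, and miR-34c# from the p53-responsive pair of hairpins that ciliated cells express. Over the mice, the range of miR-7# (0.12 to 1.08) overlapped those of miR-24-2# (0.89 to 1.79) and miR-34c# (-0.36 to 0.73). The ranges of miR-24-2# and miR-34c# did not overlap each other. The lowest were miR-21# (-6.94), miR-218-1# (-6.67) and let-7g# (-6.44), and miR-21# was undetected in mice 13 and 2.

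For 36 hairpins both arms had values, and the # strand was the lower one in 32 of them. A further 14 # assays, miR-9# and miR-33a# among them, had a value while no assay of the same name did, so they are not in this count. Over the 36 hairpins the difference (# minus main arm, log2) had a median of -5.99. These differences also hold the unequal efficiencies of 2 assays, and in 30 hairpins the arms are in different primer pools, so the levels of the arms are a description; comparisons of 1 difference between groups are free of a constant assay effect. Of the 28 hairpins measured in all 12 mice, the main arm was above the # arm in all mice for 23, and the # arm above the main arm in all mice for none.

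The widest gaps were in miR-21# (-12.01), miR-26b# (-11.88) and miR-16# (-10.48). miR-21 is abundant in inflamed and fibrotic tissue, miR-26b restrains growth in several tissues, and miR-16 is a broad inhibitor of the cell cycle. The # arm was the higher one on average in miR-7# (5.61), miR-136# (1.20), miR-340# (0.54) and miR-503# (0.39). The miR-7# assay carries the rat prefix while its partner carries that of the fly. That partner was undetected in all 3 unirradiated flaxseed mice, so the pair was not tested. miR-136#, from the Dlk1-Dio3 cluster, was above its main arm in all 11 mice that had both, and miR-340# in 11 of 12. The names do not settle which arm each miR-340 assay reads. miR-503# was above in 9 of 12, at -0.02 to 1.15 except in mouse 9, where it was at -1.08.

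Related hairpins can be set side by side on the same scale. In the miR-29 family, which restrains matrix genes, the # minus main difference averaged -8.60 for miR-29a#, -8.30 for miR-29c# and -4.45 for miR-29b#. In the clustered epithelial miR-200 family it averaged -9.81 for miR-200a# and -6.76 for miR-200b#, which share a # seed. miR-99a# and miR-99b#, the other pair with a shared # seed, stood at -9.83 and -9.78. miR-27a# and miR-27b#, whose main arms share a seed and act in vessels, stood at -7.64 and -7.08. Within the paralogous miR-17 and miR-106b clusters the spread was wide, with miR-20a# at -8.62, miR-17# at -8.07, miR-106b# at -5.86, miR-18a# at -3.64 and miR-93# at -1.07. miR-322# and miR-503#, neighbours on the X chromosome, stood at -1.51 and 0.39, while miR-16#, of the related miR-15/16 family, stood at -10.48.

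**Figure D2:**
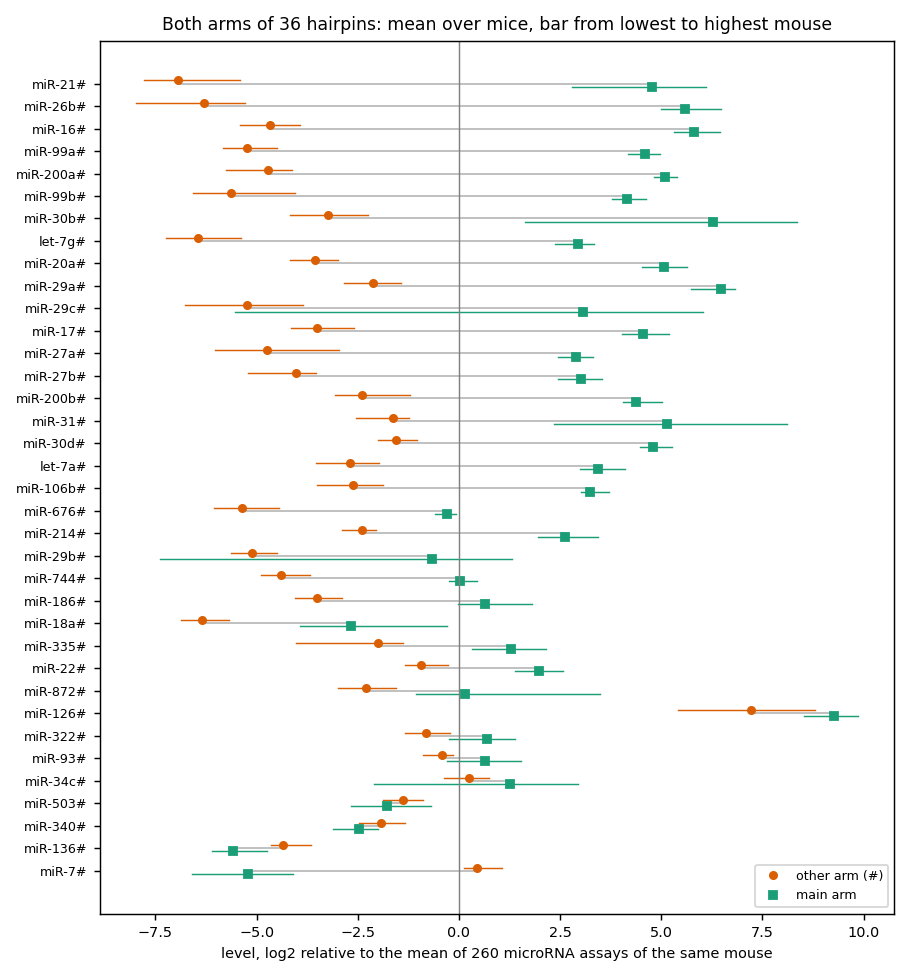
Mean level of the # arm (circles) and the main arm (squares) for 36 hairpins, in log2 relative to the mean of 260 microRNA assays, with bars from the lowest to the highest mouse; hairpins are ordered by the difference. The # arm is to the left in 32 hairpins, and the main arms of miR-29c, miR-29b, miR-30b and miR-31 have the longest bars.

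Over the tested hairpins the median within-group SD was 0.36 for # arms and 0.30 for main arms, but the arms of a single hairpin often differed. It was 0.76 for miR-27a# and 0.20 for its main arm, and 0.25 for miR-872# and 1.24 for its main arm. The # arm varied more in 21 of 34 hairpins. The extremes were on the main arm: its SD reached 2.40, against at most 0.82 for a # arm. The 2.40 belongs to miR-31, whose main arm read 7.46, 2.36 and 7.37 in irradiated flaxseed mice, 6.81, 3.01 and 3.12 in unirradiated flaxseed mice, 3.12 and 4.33 in irradiated control mice (none in mouse 9) and 8.10, 2.83 and 7.96 in unirradiated control mice. Both high and low readings thus occurred in 3 of the groups. miR-31# stayed between -2.54 and -1.24 in the same mice.

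Flaxseed was first compared with the control diet in unirradiated mice, 3 against 3. Here 5 of the 49 # strands were called at an adjusted p under 0.05 (limma, adjusted over all 296 tested assays): miR-26b#, miR-33a#, let-7a# and miR-872# were higher with flaxseed and miR-18a# lower. Over all 296 assays 12.2% were called (5.07% higher and 7.09% lower), so the share among # strands was near the background. The groups did not overlap for 12 of the 49, 10 higher and 2 lower, against 28.4% of all 296 assays (16.9% higher and 11.5% lower), so the # strands did not stand out by this count. miR-26b# had the largest difference of the 5 called. In whole lung, fewer cells of a type and less RNA per cell cannot be told apart.

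miR-26b# read -5.28, -5.44 and -5.31 in unirradiated flaxseed mice, against -7.60, -6.62 and -7.99 in unirradiated control mice. The groups did not overlap, and the 3 flaxseed mice were also above all 6 irradiated mice (-6.23, -6.34 and -6.60 on flaxseed, -5.69, -6.37 and -6.19 on control diet). The difference was 2.06 ± 0.32 (SE), with an adjusted p of 0.00634. It stayed between 1.69 and 2.45 and was called in all 22 alternatives that could be fitted, which do not include the Crt limit of 26. The unirradiated control readings lay near the detection limit of 28, with Crt values of 27.50, 26.71 and 27.84 in mice 2, 4 and 5. The main arm, miR-26b, read 6.19, 6.48 and 5.63 in unirradiated flaxseed mice, against 5.87, 5.21 and 5.21 in unirradiated control mice, a difference of 0.67 ± 0.26 with an adjusted p of 0.1355. The difference of the arms changed by 1.39 ± 0.45, which was not called (adjusted p = 0.0701), so a change of miR-26b# beyond that of its main arm was not shown. At a mean level of -6.30, miR-26b# was the fifth lowest of the # strands measured.

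let-7a#, from a hairpin whose main arm restrains growth and is abundant in differentiated tissue, read -1.98, -2.32 and -2.56 in unirradiated flaxseed mice, against -3.13, -3.54 and -3.11 in unirradiated control mice. The difference was 0.98 ± 0.23 (adjusted p = 0.0197), without overlap. The let-7a main arm differed by -0.20 ± 0.25 (adjusted p = 0.631), and the change in the difference of the arms, 1.18 ± 0.36, was not called (adjusted p = 0.0587). The call of let-7a# was lost without mouse 4, and under pool scaling (0.68, adjusted p = 0.0516), control RNA scaling (0.60, 0.11) and the authors' normalized values (0.84, 0.127). The other let-7 # strand with a value, let-7g#, was not called.

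miR-33a#, from the sterol-regulating hairpin within Srebf2, read -5.19, -5.86 and -5.22 in unirradiated flaxseed mice, against -5.89, -6.53 and -6.87 in unirradiated control mice. The groups were apart by 0.03 at their nearest, and the difference was 1.00 ± 0.28 (adjusted p = 0.0412). Its main arm had no value. The call was lost with any 1 mouse left out except mice 2 and 12, and under pool scaling (0.70, adjusted p = 0.112), control RNA scaling (0.63, 0.289) and the authors' normalized values (0.72, 0.11). miR-872# read -1.87, -1.56 and -2.26 in unirradiated flaxseed mice, against -2.87, -2.52 and -2.99 in unirradiated control mice, a difference of 0.89 ± 0.22 (adjusted p = 0.0248) that was not called without mouse 11, 12, 2 or 5. Nor was it called under pool scaling (0.59, adjusted p = 0.112), control RNA scaling (0.52, 0.264) or the authors' normalized values (0.76, 0.138). Its main arm read 3.50 in mouse 13 and -0.17 and -0.04 in mice 11 and 12, and its difference of 1.43 ± 0.90 was not called (adjusted p = 0.317).

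miR-18a#, of the growth-promoting miR-17 to miR-92 cluster, read -6.87 and -6.66 in mice 12 and 13 and was undetected in mouse 11, against -5.91, -5.67 and -6.05 in unirradiated control mice. The difference was -0.89 ± 0.24 (adjusted p = 0.041). The flaxseed readings lay near the detection limit of 28, with Crt values of 26.9 and 27.9 in mice 12 and 13 and 28.3 in mouse 11. The call held without mouse 9 and without mouse 11, whose omission removed no reading of this assay. It was lost without mouse 2, 4, 5, 7, 8, 15, 17 or 18. Leaving out mouse 12 or 13 leaves a single unirradiated flaxseed mouse with a level. It was not called scaled to the median assay (-0.64, adjusted p = 0.0761) or in the authors' normalized values (-0.65, 0.127). Fitted on the compared groups alone, miR-26b# was the 1 # strand called, with 3.04% of all assays. The other 4 # strands of these clusters, miR-17#, miR-20a#, miR-93# and miR-106b#, were not called, while 3 of the 10 tested other assays of the clusters were called lower.

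The median difference over the 49 # strands was 0.31, against 0.22 over all 296 assays. Scaled to the control RNAs these medians were -0.06 and -0.17, so the sign of the median difference depended on the scaling. miR-26b# was still higher with flaxseed and called when scaled to the control RNAs. Under that scaling 2 # strands and 10.1% of all assays were called. Separately, with levels scaled as in the main fit, 2 to 5 # strands were called when 1 mouse was left out. The share of all assays called in those fits is not given here.

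**Figure D3:**
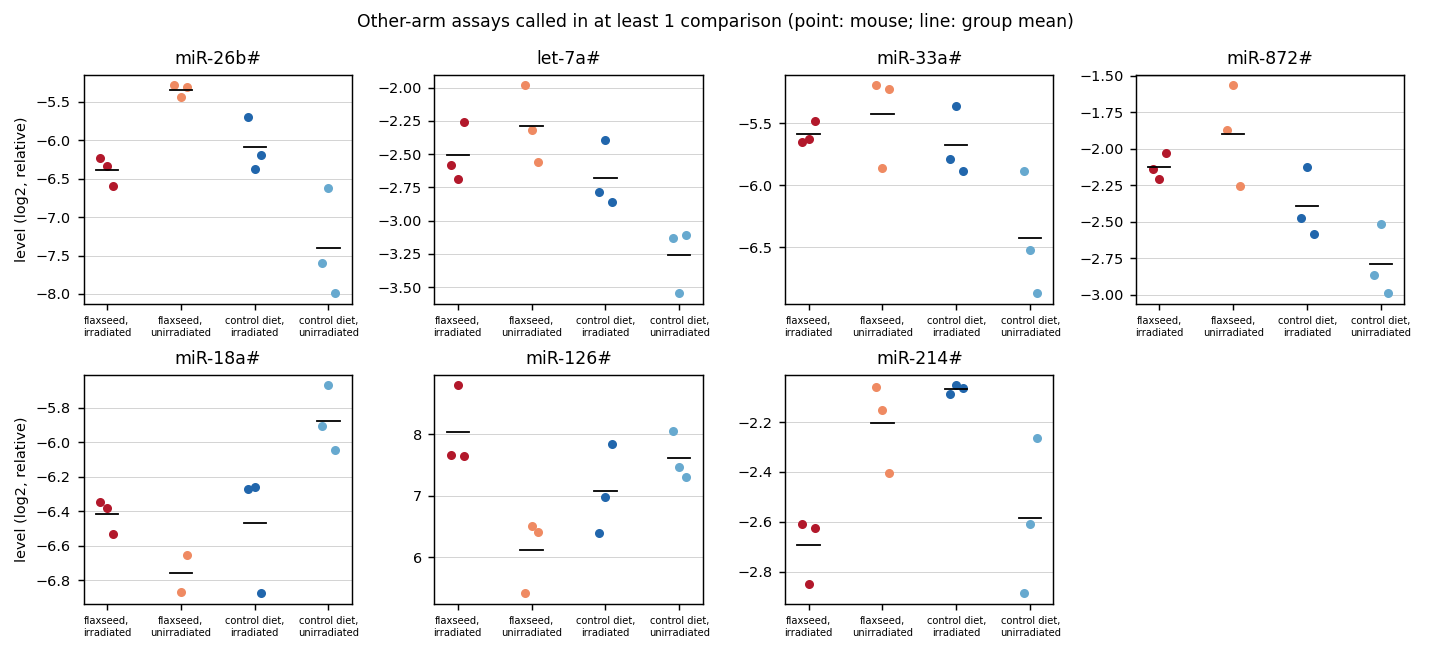
Level of the 7 # strands called in at least 1 comparison, by group, in log2 relative to the mean of 260 microRNA assays; each point is a mouse and each line a group mean. The 3 unirradiated flaxseed mice are the highest for miR-26b# (-5.44 to -5.28), and the vertical axes differ between panels.

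The arms were then compared with each other in the same mice. In 4 of 34 hairpins the difference of the arms was called between unirradiated flaxseed and control mice: it was higher with flaxseed for miR-29c, miR-29b and miR-34c, and lower for miR-186. Of the 53 hairpins in that fit, 11.3% were called (7.55% higher and 3.77% lower), again near the share among # hairpins. In none of the 4 was the # strand itself called; the main arm was called in 2, miR-29c and miR-34c, and was lower there.

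miR-29c, which represses collagen and other matrix genes, read -5.55, -0.47 and 1.00 in unirradiated flaxseed mice, against 4.64, 3.98 and 4.61 in unirradiated control mice. The groups did not overlap, and the main arm differed by -6.08 ± 1.30 (adjusted p = 0.0146). Its # strand read -5.06, -5.17 and -5.65 with flaxseed and -6.78, -3.85 and -6.03 with control diet, with overlap and a difference of 0.26 ± 0.60 (adjusted p = 0.788). The difference of the arms thus averaged -3.62 ± 3.69 with flaxseed and -9.96 ± 1.89 with control diet (SD, n = 3 each), a change of 6.34 ± 1.56 (SE) with an adjusted p of 0.0206. In mouse 11 the # strand read above the main arm, by 0.49. Without mouse 11 the change was 4.28 (adjusted p = 0.0323), and it was not called without mouse 12 (adjusted p = 0.0527), mouse 2 (0.0731) or mouse 5 (0.0706).

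miR-29b, with the same seed, read -7.39, -2.75 and -1.34 in unirradiated flaxseed mice, against 0.12, -0.60 and 0.63 in unirradiated control mice, a difference of -3.88 ± 1.20 that was not called on its own (adjusted p = 0.0581). miR-29b# read -4.94, -4.51 and -4.74 with flaxseed and -5.37, -5.27 and -5.56 with control diet. It did not overlap and was higher by 0.67 ± 0.27, but was not called (adjusted p = 0.137). The difference of the arms changed by 4.55 ± 1.15 (adjusted p = 0.0206), and by 2.88 without mouse 11. It was not called without mouse 12, 2 or 5 (adjusted p of 0.0527, 0.0641 and 0.0706). The third member of the family, miR-29a, read 6.57, 6.35 and 5.73 in unirradiated flaxseed mice, against 6.43, 6.54 and 6.70 in unirradiated control mice (-0.34 ± 0.24, adjusted p = 0.356). Its arm difference changed by 0.43 ± 0.40 (adjusted p = 0.494). miR-29b-2#, the strand of the other miR-29b hairpin, was tested and its level was called in no comparison. It was not set against the miR-29b main arm.

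miR-34c read -2.09 and -0.57 in mice 12 and 13 and was undetected in mouse 11, against 2.03, 1.51 and 1.89 in unirradiated control mice, a difference of -3.14 ± 0.57 (adjusted p = 0.0104). miR-34c# read 0.73, 0.63 and 0.01 with flaxseed, mouse 11 included, and -0.36, 0.26 and 0.05 with control diet. The difference of the arms changed by 3.47 ± 0.72 (adjusted p = 0.0127). In both flaxseed mice with a value for both arms the # strand was the higher, by 2.72 and 0.57. It was lower by 1.24 to 2.39 in the control mice. The change was 2.40 and not called without mouse 12 (adjusted p = 0.0866).

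miR-186 moved the other way, with its main arm at 1.80, 1.73 and 0.79 in unirradiated flaxseed mice, against 0.58, 0.99 and -0.01 in unirradiated control mice. miR-186# read -3.35, -3.34 and -3.98 with flaxseed and -2.90, -2.96 and -4.06 with control diet. Neither arm was called, and the difference of the arms changed by -1.17 ± 0.30 (adjusted p = 0.0206). It was not called without mouse 11, 12 or 2.

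The main arms of miR-29b, miR-29c, miR-34c and miR-186 are in pool A and their # arms in pool B, and mouse 11 had the smallest gap between the pools. With each pool scaled on its own the changes were 5.86 for miR-29c, 4.07 for miR-29b, 3.22 for miR-34c and -1.66 for miR-186, all called. Fitted on the compared groups alone, none was called. The part of the lower number of detected assays in mice 11 and 13 in these changes was not tested.

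**Figure D4:**
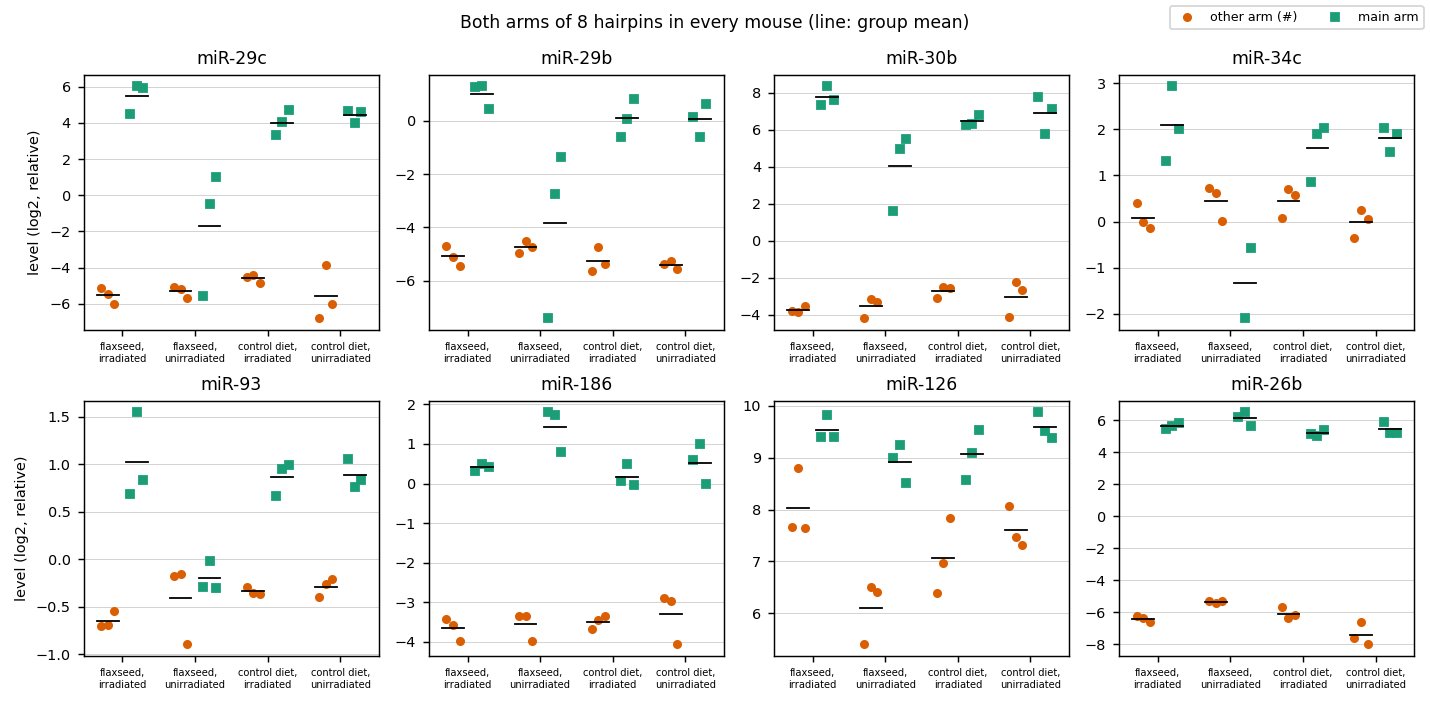
Level of the # arm (circles) and the main arm (squares) of 8 hairpins in every mouse, by group, in log2 relative to the mean of 260 microRNA assays; lines are group means and vertical axes differ. The main arms of miR-29c, miR-29b, miR-30b and miR-34c drop in the unirradiated flaxseed mice, where the group mean of miR-29c# (-5.29) lies within its range in the other groups.

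Flaxseed was next compared with the control diet in irradiated mice. None of the 49 # strands was called there (limma). An unadjusted p under 0.05 was found for 12 of them and for 52 of the other 247 assays. Over all assays 5.07% were called (2.36% higher and 2.7% lower). First by p came miR-16# (-1.08 ± 0.30, adjusted p = 0.0628), miR-214# (-0.63 ± 0.19, adjusted p = 0.107) and miR-17# (-0.92 ± 0.32, adjusted p = 0.136). miR-16# read -5.39, -5.19 and -4.99 in irradiated flaxseed mice, against -4.29, -3.92 and -4.11 in irradiated control mice. Its groups did not overlap, as was so for 20 of the 49 (7 higher and 13 lower) and for 37.8% of all 296 assays (15.2% higher and 22.6% lower). Of the arm differences none was called among 34 (0% of the 53 hairpins were called). First by p came miR-16# (-1.25 ± 0.38), miR-503# (1.19 ± 0.39) and miR-29a# (1.04 ± 0.40), each with an adjusted p of 0.192. Of the 34 # hairpins 6 had an unadjusted p under 0.05, beside 5 of the other 19 hairpins. Fitted on these groups alone, 7 of 49 levels and 3 of 34 arm differences were called, with 16.2% of all assays and 11.3% of all hairpins called in the same fits.

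Pooled over radiation, 6 flaxseed mice against 6 control mice, 3 # strands were called, all higher: miR-26b# by 0.88 ± 0.23 (adjusted p = 0.043), miR-872# by 0.58 ± 0.16 (adjusted p = 0.0449) and let-7a# by 0.57 ± 0.16 (adjusted p = 0.0468). Over all assays 10.5% were called (6.08% higher and 4.39% lower). The flaxseed difference was -0.30 in irradiated and 2.06 in unirradiated mice for miR-26b#, 0.27 and 0.89 in these for miR-872#, and 0.17 and 0.98 for let-7a#, and for no # strand were all 6 flaxseed mice apart from all 6 control mice. The difference between the radiation states was called for miR-26b# and not for the other two. Scaled within primer pools or to the control RNAs, none of the 49 was called, against 8.78% and 4.73% of all assays. The arm difference of miR-186 was the 1 called of 34, at -0.79 ± 0.21 (adjusted p = 0.0433), with 7.55% of all hairpins called. Next came miR-27a# (1.29 ± 0.46) and miR-34c# (1.31 ± 0.48), both with an adjusted p of 0.142.

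Radiation was compared within each diet. On the flaxseed diet, 1 of 49 # strands was called, miR-126#, while 14.5% of all assays were (8.45% higher and 6.08% lower). miR-126# read 7.66, 8.80 and 7.65 in irradiated flaxseed mice, against 5.41, 6.51 and 6.41 in unirradiated flaxseed mice. The groups did not overlap, and the difference was 1.93 ± 0.46 (adjusted p = 0.0247). The main arm, miR-126, which guards vessel integrity, read 9.39, 9.83 and 9.39 in irradiated flaxseed mice, against 8.98, 9.25 and 8.52 in unirradiated flaxseed mice (0.62 ± 0.29, adjusted p = 0.16). The difference of the arms changed by 1.31 ± 0.38 (adjusted p = 0.0363), with both assays in pool A, and was called in 10 of 23 alternatives. The level was not called without mouse 11, 15, 17 or 18. Next came miR-26b# (-1.04 ± 0.32, adjusted p = 0.0521) and miR-99a# (-0.73 ± 0.27, adjusted p = 0.0873).

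The arm difference was called in 7 of 34 hairpins between irradiated and unirradiated flaxseed mice, beside 18.9% of all 53 (5.66% higher and 13.2% lower). It was lower after radiation for miR-29c (-7.40 ± 1.56), miR-29b (-5.19 ± 1.15), miR-30b (-3.96 ± 0.93), miR-34c (-3.65 ± 0.72) and miR-93 (-1.46 ± 0.32), and higher for miR-126 (1.31) and miR-186 (0.93 ± 0.30). miR-186 was just past the threshold (adjusted p = 0.0499) and lost its call in 17 of 23 alternatives, with any 1 mouse left out among them. In all 5 that were lower, the main arm was called higher after radiation and the # strand was not called. This comparison shares the unirradiated flaxseed mice with the diet comparison above, so its values are not a second measurement of those mice.

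miR-30b read 7.36, 8.35 and 7.62 in irradiated flaxseed mice, against 1.63, 4.96 and 5.47 in unirradiated flaxseed mice, where mouse 11 was the lowest. The main arm differed by 3.76 ± 0.87 (adjusted p = 0.0247). miR-30b# read -3.81, -3.87 and -3.51 in irradiated flaxseed mice, against -4.17, -3.14 and -3.30 in unirradiated flaxseed mice, with overlap and a difference of -0.20 ± 0.45. Its arm difference was not called without mouse 11 or 17. miR-93, a relative of miR-17 from the cluster within Mcm7, read 0.69, 1.54 and 0.84 in irradiated flaxseed mice, against -0.29, -0.02 and -0.30 in unirradiated flaxseed mice, a difference of 1.22 ± 0.24 (adjusted p = 0.013). miR-93# read -0.71, -0.69 and -0.55 in irradiated flaxseed mice, against -0.18, -0.16 and -0.90 in unirradiated flaxseed mice, with overlap. miR-106b#, from the same host gene as miR-93#, was not called on either scale. Without mouse 17 none of the 34 arm differences was called.

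**Figure D5:**
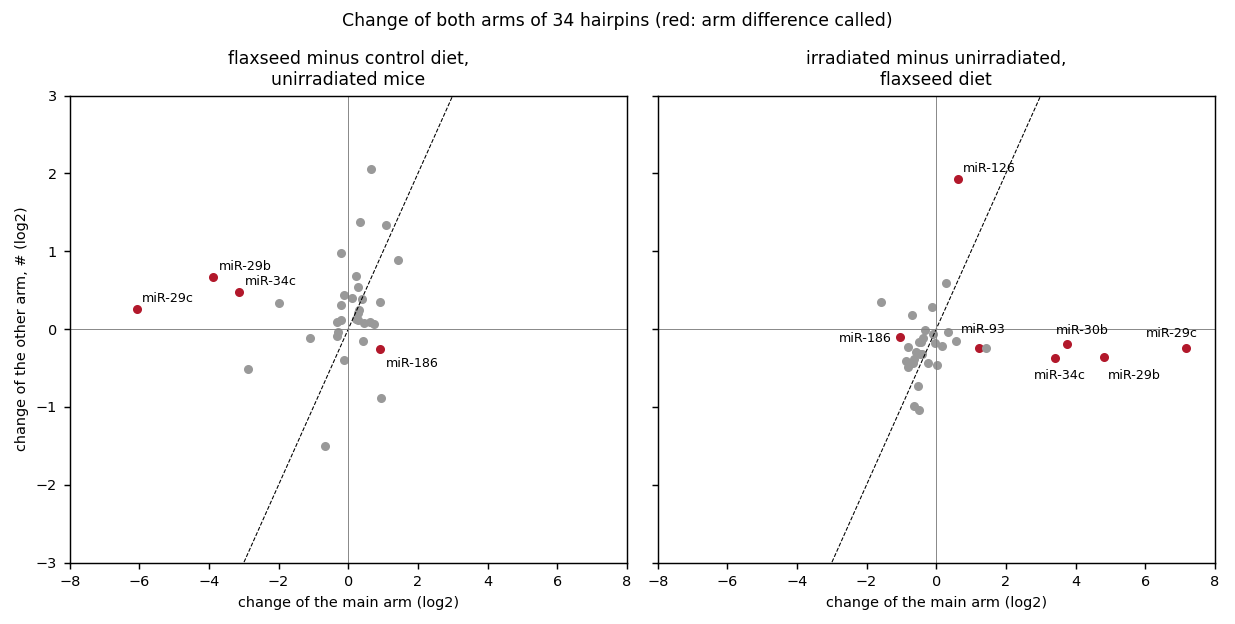
Change of the # arm (vertical axis) against that of the main arm (horizontal axis) for 34 hairpins, in log2, between unirradiated flaxseed and control mice (left) and between irradiated and unirradiated flaxseed mice (right). The dashed line marks equal change and red points are hairpins whose arm difference was called; the horizontal axis spans more units than the vertical one. The main arm of miR-29c changes by -6.08 (left) and 7.16 (right) and miR-29c# by 0.26 and -0.24.

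On the control diet radiation gave no call among the 49 # strands (limma, 0% of all assays). An unadjusted p under 0.05 was found for 7 of them, beside 23 of the other 247 assays. miR-26b# had the smallest p, at 1.32 ± 0.32 (adjusted p = 0.193), followed by miR-376b# (1.06 ± 0.38) and miR-18a# (-0.60 ± 0.21), both with an adjusted p of 0.442. None of the 34 arm differences was called (0% of all hairpins), with 4 at an unadjusted p under 0.05, beside 1 of the other 19. miR-26b# (1.58 ± 0.45), miR-335# (1.15 ± 0.36) and miR-16# (0.99 ± 0.38) had the smallest p values. Pooled over diet, radiation gave no call among the 49 either (0% of all assays). None of them had an unadjusted p under 0.05, against 50 of the other 247 assays. First by p came miR-126# (0.69 ± 0.32), miR-33a# (0.29 ± 0.20) and miR-340# (-0.26 ± 0.18). No arm difference of a # hairpin was called (1.89% of all hairpins), and 8 had an unadjusted p under 0.05, against 1 of the other 19. miR-93# (-0.74 ± 0.23), miR-29b# (-2.54 ± 0.81) and miR-34c# (-1.49 ± 0.48) had the smallest p values, each with an adjusted p of 0.153.

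The radiation effect was then compared between the diets. It differed for 3 of 49 # strands, with 8.45% of all assays called (4.73% higher and 3.72% lower). For miR-126# it was 1.93 on the flaxseed diet and -0.54 on the control diet, a difference of 2.47 ± 0.65 (adjusted p = 0.0432). For miR-26b# it was -1.04 on flaxseed and 1.32 on control diet (-2.36 ± 0.45, adjusted p = 0.0273). For miR-214# it was -0.49 on flaxseed and 0.52 on control diet (-1.01 ± 0.27, adjusted p = 0.0479). miR-214# comes from a hairpin of mesenchymal cells antisense to Dnm3, and it read -2.61, -2.85 and -2.62 in irradiated flaxseed mice, -2.06, -2.15 and -2.41 in unirradiated flaxseed mice, -2.09, -2.05 and -2.06 in irradiated control mice and -2.89, -2.61 and -2.26 in unirradiated control mice. Its main arm, by assay 000517B of the same pool, had a like interaction of -1.10 ± 0.38 that was not called (adjusted p = 0.0868). A further miR-214 assay, 002306A, was detected in all 12 mice at a mean of 1.58 (2.61 for 000517B) and was not used in the pair. The arm difference of miR-214 moved by 0.09 ± 0.39.

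Of the arm differences, those of miR-34c (-4.32 ± 0.96, adjusted p = 0.0321) and miR-29c (-8.76 ± 2.21, adjusted p = 0.041) had a called interaction, with 5.66% of all hairpins called (1.89% higher and 3.77% lower), and in both the main arm was called as well. The 30b pair came next at -4.70 ± 1.32 (adjusted p = 0.0552). With each primer pool scaled on its own, 7 of 34 arm differences were called for the interaction, with 18.9% of all hairpins called under that scaling.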

How the data were processed

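MicroRNAs in lung RNA of 12 mice were measured by TaqMan OpenArray quantitative PCR after reverse transcription of 100 ng RNA with primer pools A and B and 12 pre-amplification cycles, per the labels' protocols. The authors deposited Crt values, a log2 scale that runs downward, and a second table of normalized log2 values. How Crt was called and how the second table was normalized are not given in the sources used here. Every column was used. Arrays of this kind have no read depth, so the number of reactions limits the precision.

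Names stand only in the normalized table and were carried to the Crt table by comparing, mouse by mouse, where an assay ranks among the others: all 322 named assays with a value were matched, each the best match both ways, with the next best at least 7.13 times farther away. In addition, 319 lie within 5 positions of the same row in both tables. A further 4 assays had a Crt and no name and were left out.

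The level is the negative of Crt minus the mouse's mean Crt over 260 assays. Levels of 296 assays, and arm differences of 53 hairpins, were each fitted in limma 3.58.1 (R 4.3.3) as 4 group means of all mice. Of the hairpins, 34 had a # strand. The others were formed by pairing -3p with -5p, or either of these with the assay of that name without a suffix. Where an arm had several assays, as miR-214 and miR-200b did, a single one was used. The same species prefix was taken first, then the most mice detected, then the lowest assay number. Benjamini-Hochberg adjustment was used, and an adjusted p under 0.05 was called. Undetected reactions were treated as missing. No label says that the mice of a group shared a batch. The fit was tested on simulated data. The named # strands are those called in a comparison, or the 3 with the smallest p where fewer were called, the highest and lowest by level and arm difference, and fixed hairpins. The members and lists were chosen with earlier results of these data known. Sequences are from RefSeq (GRCm38.p6).

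Alternatives were scaling within primer pools, to control RNAs or to the median assay, the authors' normalized values, Crt limits of 26 and 30, undetected reactions set to 28, assays detected in all mice, the compared groups alone, and leaving out mice. Pool scaling without mouse 11 was added after seeing the data.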

Additional observations from a re-analysis of the deposited data

Results flagged for a closer look

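The effect of radiation differed between the diets, by limma's interaction term, in 5 results. miR-126# had a difference of 2.47 between the radiation effects (log2), with 1.93 on the flaxseed diet and -0.54 on the control diet. It kept its call in 4 of 22 alternatives, with adjusted p from 0.0328 to 0.109. For miR-214# the value was -1.01, called in 4 of 22 alternatives. For miR-26b# it was -2.36, called in 16 of 21.

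The arm difference of miR-34c had an interaction of -4.32, called in 12 of 21 alternatives, and that of miR-29c -8.76, called in 13 of 22. In both, the main arm was low in the unirradiated flaxseed mice and undetected or lowest in mouse 11. Mice 11 and 13 had the fewest detected assays, and the part of this in the 5 results was not tested. The number of decimals in the Crt values splits the mice in the same way as this interaction, so that split and the interaction cannot be told apart. The same holds for every comparison within a diet or within a radiation state.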

How the results depend on the processing

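No named # strand or arm difference changed sign under any alternative; of 1091 values under alternatives, 829 kept their direction and side of the threshold, 233 lost their call and 29 gained one. The counts of calls moved more, and where they did the cause was not tested. Apart from the shares given above, these counts stand without the share of all assays or hairpins called in the same fit. A moved count is therefore not a result about # strands alone. The counts given first are those of the report. Flaxseed over control diet in all mice gave 3 # strands, and 0 under pool scaling, control RNA scaling, the authors' normalized values, and pool scaling without mouse 11. With 1 mouse left out it gave 0 (without 5, 8, 9, 11, 12, 15, 17 or 18) to 5 (without 2). In unirradiated mice it gave 5 # strands, 3 under pool scaling, 2 under control RNA scaling, the authors' values, a Crt limit of 26, and pool scaling without mouse 11, and 1 on the compared groups alone. With 1 mouse left out it gave 2 (without 4) to 5. In irradiated mice it gave 0 # strands, 4 without mice 2 and 11, 7 on the compared groups alone and 1 under pool scaling without mouse 11, and 0 to 1 with 1 mouse left out (1 without 2, 11 or 12). Radiation on the flaxseed diet gave 1 # strand, 2 scaled to the median assay, at a Crt limit of 30 and for assays detected in all 12 mice, and 0 without mice 2 and 11 and on the compared groups alone. With 1 mouse left out it gave 0 (without 11, 15, 17 or 18) to 2 (without 4, 5 or 13). Radiation on the control diet gave 0, and 0 to 2 with 1 mouse left out (2 without 4). The interaction gave 3 # strands, 0 scaled to control RNAs, and 1 under the authors' values, at a Crt limit of 30, with undetected reactions set to 28 and for assays detected in all 12 mice. With 1 mouse left out it gave 0 (without 7, 8, 17 or 18) to 5 (without 13).

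Of the arm differences, flaxseed in all mice gave 1 call, 0 under pool scaling, the authors' values, a Crt limit of 30, undetected set to 28 and pool scaling without mouse 11, and 2 without mice 2 and 11. With 1 mouse left out it gave 0 to 3 (3 without 2 or 13, and 0 without each other mouse). In unirradiated mice it gave 4, 0 on the compared groups alone, and 0 (without 12) to 8 (without 13) with 1 mouse left out. In irradiated mice it gave 0, and 3 both without mice 2 and 11 and on the compared groups alone. Radiation in all mice gave 0, 2 at a Crt limit of 26, 1 under pool scaling without mouse 11, and 0 to 3 (without 13) with 1 mouse left out. On the flaxseed diet it gave 7, 0 on the compared groups alone, 4 under pool scaling without mouse 11, and 0 (without 17) to 7 with 1 mouse left out. On the control diet it gave 0, and 0 to 1 (without 4 or 5). The interaction gave 2, 7 under pool scaling, 4 at a Crt limit of 26, 6 at a Crt limit of 30, 0 with undetected set to 28, 1 for assays detected in all 12 mice, and 6 without mice 2 and 11. With 1 mouse left out it gave 0 to 7 (without 13). miR-26b# could not be fitted at a Crt limit of 26. No paired analysis was possible because the mouse numbers are not shared between groups. With 3 mice a group, the number of mice and of reactions limits the precision.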
